A study of Mus musculus with 9 samples.

Results

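Genes of the type 1 helper (Th1) program were followed in regulatory T cells (Tregs), a Foxp3-positive lineage of CD4 T cells that holds immunity in check. They were the 2 chains of the interleukin-12 (IL-12) receptor, Il12rb1 and Il12rb2, and the transcriptional regulators Stat4, Tbx21, Eomes, Runx3 and Hopx. They were taken by symbol, and all 7 were found among the 23420 genes of the deposited expression table. RNA was sequenced from 9 libraries of Tregs sorted on a Foxp3 reporter (YFP) from mice labelled WT. The groups, of 3 libraries each, were synovial Tregs from digested paws of mice with collagen-induced arthritis, Tregs from the draining lymph nodes of mice with collagen-induced arthritis, and draining node Tregs of control mice given no treatment. Collagen-induced arthritis is a model of inflammatory joint disease raised by immunization with collagen. In the titles, synovial and node libraries of the arthritic animals carry matching mouse numbers, so these were read as pairs from 1 animal each. Strain, age and sex are not in the labels used here.

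IL-12 is bound by a receptor of 2 chains. The Il12rb1 chain is shared with the IL-23 receptor and is tied to the kinase Tyk2, while the Il12rb2 chain is tied to Jak2 and carries the sites at which STAT4 docks. Phosphorylated STAT4 enters the nucleus and, together with the T-box factor T-bet, encoded by Tbx21, switches on interferon gamma and the receptor chain Il12rb2 itself. RUNX3 acts with T-bet on the Ifng and Il4 genes, Hopx is a T-bet-dependent gene of Th1 cells that has also been described in Tregs of mice, and Eomes encodes the T-box relative of T-bet that prevails in CD8 T cells and natural killer (NK) cells. In mice, a subset of Tregs expresses T-bet at sites of Th1 inflammation.

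The sequences around the start sites of 4 members are given because 3 of them, Stat4, Runx3 and Hopx, rose together in synovium, and because the start site of Il12rb2 holds the only STAT motif found. Each runs 5′ to 3′ on the gene's own strand, 250 bases before to 50 after the start, from RefSeq (GRCm38.p6), where 6 of the 7 members matched. Capitals mark matches to the STAT motif TTCNNNGAA or the Runx motif TGTGGT on either strand. Stat4 is read on the plus strand at chr1:51986898-51987197, Runx3 on the plus strand at chr4:135120395-135120694, Hopx on the minus strand at chr5:77115074-77115373 and Il12rb2 on the minus strand at chr6:67376139-67376438. For Stat4, Runx3 and Hopx, which have 2 start sites each in the table, the upstream one is shown.
Stat4: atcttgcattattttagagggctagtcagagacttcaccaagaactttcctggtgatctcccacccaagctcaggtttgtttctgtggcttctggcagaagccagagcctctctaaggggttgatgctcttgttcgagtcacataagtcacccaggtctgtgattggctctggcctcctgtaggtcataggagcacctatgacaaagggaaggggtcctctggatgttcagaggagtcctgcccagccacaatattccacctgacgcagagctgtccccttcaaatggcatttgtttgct
Runx3: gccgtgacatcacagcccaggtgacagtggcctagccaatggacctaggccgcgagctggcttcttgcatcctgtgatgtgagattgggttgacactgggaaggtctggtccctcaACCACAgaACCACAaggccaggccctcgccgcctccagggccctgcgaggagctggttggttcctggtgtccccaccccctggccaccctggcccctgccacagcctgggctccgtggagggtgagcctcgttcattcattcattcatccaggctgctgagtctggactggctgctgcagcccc
Hopx: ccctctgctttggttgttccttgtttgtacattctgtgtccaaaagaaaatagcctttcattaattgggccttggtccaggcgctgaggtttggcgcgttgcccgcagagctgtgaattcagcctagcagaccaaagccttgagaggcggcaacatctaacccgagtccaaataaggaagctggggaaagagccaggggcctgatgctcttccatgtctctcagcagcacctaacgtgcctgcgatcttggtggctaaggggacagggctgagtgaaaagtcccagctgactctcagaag
Il12rb2: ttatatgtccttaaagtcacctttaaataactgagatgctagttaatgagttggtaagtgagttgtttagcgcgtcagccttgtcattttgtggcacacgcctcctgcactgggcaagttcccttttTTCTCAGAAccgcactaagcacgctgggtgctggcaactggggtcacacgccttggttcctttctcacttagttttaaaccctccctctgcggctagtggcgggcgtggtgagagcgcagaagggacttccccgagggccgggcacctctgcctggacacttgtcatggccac
The Il12rb2 sequence held TTCTCAGAA with its first base at -123 relative to the start site, and 8.3% of the 32851 start-site sequences of this length in the table held the STAT motif. The Runx3 sequence held ACCACA, the reverse complement of the Runx motif, with first bases at -134 and -126, and 16.8% of all sequences held that motif. The T-box motif GGTGTGA, on either strand, was in none of the 9 member sequences searched and in 3.98% of all sequences. The STAT and Runx motifs were in none of the others of these 9, and a match is a run of letters, not a measured site.

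Values are normalized read counts, which are gene reads divided by a size factor per library. Fold changes are differences of the group means of log2(value + 1) ± standard error from limma, and a gene is called changed at a Benjamini-Hochberg adjusted p under 0.05 over the 11357 genes whose mean was at least 10. The 8 libraries from which whole reads could be recovered held 11844390 to 12855435 reads. On the second principal component, with 10.9% of the variance, control node library 1 lay at 83.5 and the other libraries between -41.4 and 18.8, so results that change without it are marked. All 7 Treg markers, among them Foxp3, Cd4 and Il2ra, had reads in every library, and their summed level was 119558 to 123403 in synovium, 56565 to 65009.9 in arthritic nodes and 64126 to 65398 in control nodes. Foxp3 was a small part of each sum. Its level was 413 to 538 in synovium, 222 to 294 in arthritic nodes and 170 to 404 in control nodes. Against arthritic nodes, 3 of the 7 rose in synovium, Il2ra, Ctla4 and Ikzf2, beside 17.9% of all genes tested. Foxp3 (adjusted p = 0.0597), Cd4 (0.107), Cd3g (0.109) and Cd3e (0.955) were not called. In sorted bulk samples, more RNA per cell and a larger share of cells with a transcript cannot be told apart.

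In synovial Tregs, 3 of the Th1 regulators were higher than in node Tregs of arthritic mice. Hopx was 7.12-fold, Stat4 3.82-fold and Runx3 2.19-fold higher in synovium, and each passed the test. Tbx21 was 3.94-fold higher and did not pass, and the receptor chains did not pass either. In a fit of the 6 libraries of arthritic mice alone, Tbx21 passed as well, so that 4 of 6 members tested were called. That fit called 3759 of all 11357 genes tested. With the libraries also paired by mouse, Il12rb2 passed too, so that 5 of 6 were called, beside 3776 of the 11357 genes. Of the 7 members, 6 reached the filter on low values. In the fit of all 9 libraries 3 of these were called, each higher in synovium. Among all genes tested, 33.8% were called in this comparison, 17.9% higher and 15.9% lower. The median log2 fold change of the 6 members was 1.96, against a median of -7.3e-05 over all genes tested. Libraries of the 2 groups did not overlap for 4 of the 6, Stat4, Tbx21, Runx3 and Hopx, and for 48.2% of all genes tested, 25.2% with synovium above.

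**Figure D1:**
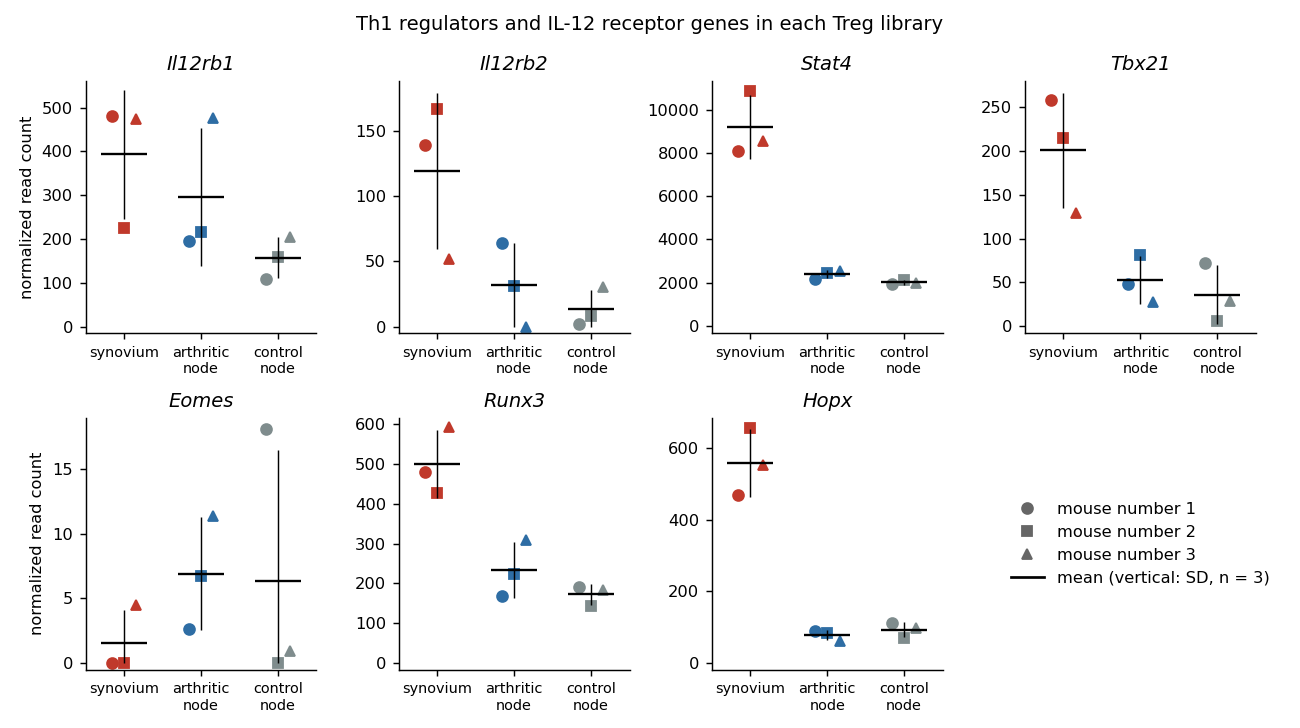
Normalized read count (vertical axes, from 0) of the 7 genes in each library, in columns for synovium, arthritic node and control node; symbols give the mouse number, horizontal lines the mean and vertical lines the SD of 3 libraries, drawn no lower than 0. Stat4, Runx3, Hopx and Tbx21 are higher in each synovial library than in any node library, Il12rb1 and Il12rb2 overlap between synovium and arthritic nodes, and Eomes stays at or under 18.1.

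Of the receptor chains, Il12rb1 (chromosome 8, 70808449 to 70821424, plus strand, GRCm38) had 480.4, 224 and 474 normalized reads in the synovial libraries of mice 1, 2 and 3, 195, 216 and 477 in the arthritic node libraries of the same mice, and 109, 159 and 204 in control nodes. The groups of arthritic mice overlapped, since the node library of mouse 3 lay among the synovial ones and the synovial library of mouse 2 among the node ones. Il12rb1 had means of 393 ± 146 in synovium and 296 ± 157 in arthritic nodes (SD, n = 3 each), and differed by 0.45 ± 0.40 (adjusted p = 0.427) with a 95% interval from 0.743-fold to 2.51-fold. Within mice, the synovial library held 2.47 times the node value in mouse 1, 1.04 times in mouse 2 and 0.994 times in mouse 3.

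Il12rb2, the chain that confers IL-12 signalling (chromosome 6, 67291318 to 67376188, minus strand), was the scarcer of the pair in each library, also per length. It had 139, 167 and 51.7 normalized reads in synovium, 64.4, 30.8 and 0 in arthritic nodes, and 2.01, 8.12 and 30.1 in control nodes. The synovial library of mouse 3 fell below the node library of mouse 1, so the groups overlapped, although in each of the 3 mice the synovial value was above the node value. The 0 in the arthritic node library of mouse 3 allows a value of up to 2.62, the level of 3 reads. Il12rb2 had means of 119 ± 60.0 in synovium and 31.7 ± 32.2 in arthritic nodes, and differed by 3.07 ± 1.37, which did not pass (adjusted p = 0.104). On this log scale the library at 0 raises the fold, to 8.41, while the ratio of the means was 3.76. In a fit of the 2 arthritic groups blocked by mouse number, Il12rb2 passed (adjusted p = 0.0237), as it did not in that fit with no block (0.0992), and it also passed without arthritic node library 1 (adjusted p = 0.0462). Without arthritic node library 3, the one at 0, the difference was 1.24 (adjusted p = 0.376). The authors' deposited DESeq2 comparison lists Il12rb2 at 1.88 with an adjusted p of 0.144.

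Exons of Il12rb2 overlap those of Serbp1 on the opposite strand, over up to 1519 bases of an exon. Whether reads were counted by strand is not stated in the sources used here, which leaves Il12rb2 uncertain. Serbp1 had 4003, 4583 and 3255 normalized reads in synovium and 4132, 4229 and 3586 in arthritic nodes, and was not called between them (-0.02 ± 0.13, adjusted p = 0.913). Against control nodes, Serbp1 fell in synovium by 0.35 (SE 0.13, adjusted p = 0.0483) and Il12rb2 was not called (adjusted p = 0.0586). The total of Serbp1 does not measure reads in the shared bases, and their part in Il12rb2 was not tested.

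The balance of the chains varied widely between libraries. The log2 ratio of Il12rb2 to Il12rb1 was -1.78, -0.43 and -3.17 in synovium, -1.58, -2.77 and -8.90 in arthritic nodes, and -5.20, -4.13 and -2.72 in control nodes. Its values overlapped between the groups. Synovium minus arthritic node was 2.62 (exact permutation test, two-sided, p = 0.5), and synovium minus control node 2.22 (exact p = 0.2), where 3 libraries against 3 cannot go below 0.1. Arthritic minus control node was -0.40 (exact p = 0.9). Over the 6 ratio comparisons made, the adjusted p-values were 0.75, 0.4 and 0.9 in this order.

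Stat4, the signal transducer of the IL-12 receptor (chromosome 1, 51987148 to 52107189, plus strand), was the most abundant member per length. It had 8113, 10880.1 and 8572 normalized reads in synovium, 2188, 2435 and 2547 in arthritic nodes, and 1941, 2131 and 1977 in control nodes. Each synovial library held over 3 times the reads of any node library, and the SD was 16.1% of the mean among synovial, 7.69% among arthritic node and 4.99% among control node libraries. Stat4 rose by 1.93 ± 0.12 against arthritic nodes (adjusted p = 2.55e-07), a fold of 3.82 with a 95% interval from 3.17 to 4.60. Within mice the synovial level was 3.71, 4.47 and 3.37 times that of the node. A predicted gene on the same strand overlaps its exons by up to 192 bases, so some of its reads are uncertain.

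Tbx21, which encodes the Th1 master regulator T-bet (chromosome 11, 97098071 to 97115331, minus strand), had 259, 215 and 129 normalized reads in synovium, 48.7, 81.8 and 28.0 in arthritic nodes, and 72.3, 6.32 and 29.2 in control nodes. The synovial libraries were above all node libraries, and the node libraries of both groups overlapped. Tbx21 had means of 201 ± 66.0 in synovium and 52.8 ± 27.1 in arthritic nodes, and differed by 1.98 ± 0.74 (adjusted p = 0.058). Within mice 1, 2 and 3 the synovial level was 5.32, 2.63 and 4.62 times that of the node, and Tbx21 passed when only the libraries of arthritic mice were fitted, both without a block (adjusted p = 0.00889) and blocked by mouse number (0.00546). It also passed in edgeR (adjusted p = 0.0297) and DESeq2 (adjusted p = 0.00508) on recovered reads of 8 libraries, and the authors' deposited table lists it at 1.91 with an adjusted p of 0.000656. Without control node library 1 the adjusted p was 0.0285, since the controls share in the estimate of the spread.

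Eomes (chromosome 9, 118478212 to 118486132, plus strand) was near the floor of detection. Its values were 0, 0 and 4.49 in synovium, 2.61, 6.73 and 11.4 in arthritic nodes, and 18.1, 0 and 0.913 in control nodes. In recovered reads these were 0, 0 and 4 in synovium and 3, 7 and 13 in arthritic nodes, and the zeros in synovium allow values of up to 3.31 and 3.52. The groups overlapped, and the mean over the 9 libraries, 4.91, was under the filter of 10, so Eomes was not tested. With no filter its difference was -1.99 ± 1.14 between synovium and arthritic nodes (adjusted p = 0.251). An annotated antisense transcript overlaps its exons, so its few reads are uncertain. The log2 ratio of Tbx21 to Eomes was 8.02, 7.75 and 4.57 in synovium, 3.78, 3.42 and 1.23 in arthritic nodes, and 1.94, 2.87 and 3.98 in control nodes. No synovial library overlapped a node library in this ratio, which is bounded by the 1 added to each value where Eomes is 0. Synovium exceeded arthritic nodes by 3.97 and control nodes by 3.85, each with an exact two-sided permutation p = 0.1, the smallest that 3 against 3 libraries can give (0.3 adjusted over 6). Arthritic nodes differed from control nodes by -0.12 (exact p = 0.9, also when adjusted).

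Runx3, a Runt-domain factor that works beside T-bet (chromosome 4, 135120652 to 135177990, plus strand), had 482, 427 and 594 normalized reads in synovium, 168, 224 and 309 in arthritic nodes, and 192, 143 and 184 in control nodes. The lowest synovial library was above the highest node library. Runx3 rose by 1.13 ± 0.27 against arthritic nodes (adjusted p = 0.00671), from 1.45-fold to 3.29-fold by its 95% interval. Mouse 3 had the highest value in both tissues, and within mice the synovial level was 2.87, 1.91 and 1.92 times that of the node.

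Hopx, a small homeodomain protein that does not bind DNA (chromosome 5, 77086988 to 77115121, minus strand), had 468, 656 and 554 normalized reads in synovium, 87.8, 83.7 and 62.0 in arthritic nodes, and 110.4, 68.6 and 96.8 in control nodes. The lowest synovial library held over 4 times the reads of the highest node library. Hopx rose by 2.83 ± 0.31 against arthritic nodes (adjusted p = 2.3e-05), a fold of 7.12 with a 95% interval from 4.47 to 11.3, at the 95.9th percentile of all log2 fold changes in this comparison. Within mice 1, 2 and 3 it had 5.33, 7.84 and 8.93 times the node level. The annotation holds an antisense transcript, Hopxos, that overlaps its exons by up to 412 bases, and without the strand setting reads of the pair cannot be told apart.

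**Figure D2:**
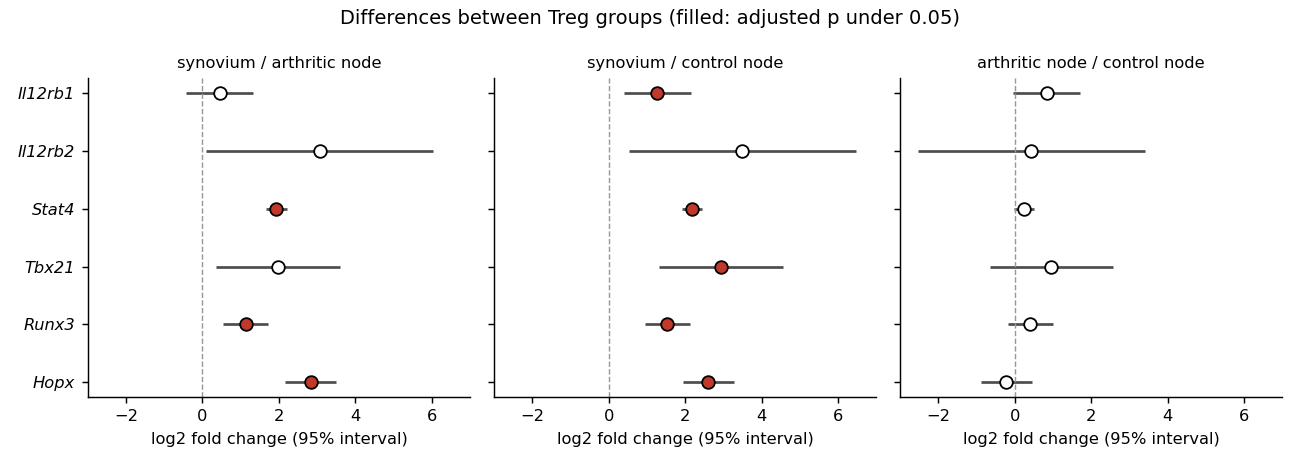
Log2 fold change with its 95% interval for the 6 members tested, for synovium over arthritic node (left), synovium over control node (middle) and arthritic over control node (right); filled points have an adjusted p under 0.05. Stat4, Runx3 and Hopx are filled in both synovial comparisons, Tbx21 and Il12rb1 are filled against control nodes, and no point is filled on the right.

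Against control node Tregs, a comparison that differs in both tissue and disease and uses the same synovial libraries, 5 of the 6 members tested were higher in synovium and 0 lower. Among all genes tested 40.1% were called here, 21.6% higher and 18.5% lower. Hopx rose by 2.61 ± 0.31 (adjusted p = 3.45e-05), Stat4 by 2.18 ± 0.12 (adjusted p = 7.47e-08), Runx3 by 1.53 ± 0.27 (adjusted p = 0.000764) and Tbx21 by 2.94 ± 0.74 (adjusted p = 0.0077). Tbx21 averaged 201 ± 66.0 in synovium and 35.9 ± 33.5 in control nodes, and its difference was 3.71 without control node library 1 and 2.04 without control node library 2, called in both. Il12rb1 averaged 393 ± 146 in synovium and 157 ± 47.1 in control nodes and rose by 1.28 ± 0.40 (adjusted p = 0.0241). That call did not hold when synovial library 1 (adjusted p = 0.0945), synovial library 3 (0.0936) or control node library 1 (0.0858) was left out, nor in edgeR (0.0941). Il12rb2 averaged 119 ± 60.0 in synovium and 13.4 ± 14.8 in control nodes, a difference of 3.50 ± 1.37 that did not pass (adjusted p = 0.0586). It passed in a fit of these 2 groups alone (adjusted p = 0.014). The libraries of these groups did not overlap for any of the 6 members tested, as for 50% of all genes, 26.2% with synovium above.

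Between the node Tregs of arthritic and control mice, no member tested was called. At an unadjusted p under 0.05 the count was also 0, and edgeR and DESeq2 gave 0 too. Of all genes tested, 0.343% were called in this comparison, 0.335% higher and 0.00881% lower. Tbx21 differed by 0.96 ± 0.74 (adjusted p = 0.779), with means of 52.8 ± 27.1 in arthritic nodes and 35.9 ± 33.5 in control nodes and a 95% interval from 0.634-fold to 5.97-fold. That difference was 1.73 without control node library 1 and 0.06 without control node library 2. Il12rb1 differed by 0.83 ± 0.40 (adjusted p = 0.583) and Runx3 by 0.40 ± 0.27 (adjusted p = 0.738). Stat4 averaged 2390.1 ± 184 in arthritic nodes and 2016 ± 101 in control nodes, a difference of 0.24 ± 0.12 (adjusted p = 0.601) whose interval ran from 0.984-fold to 1.42-fold. Its libraries did not overlap between these groups, as for 14.9% of all genes, 7.89% with arthritic nodes above. Hopx averaged 77.9 ± 13.9 in arthritic nodes and 91.9 ± 21.3 in control nodes, a difference of -0.23 ± 0.31 (adjusted p = 0.893). For Il12rb2 the interval, from 0.172-fold to 10.5-fold, left the direction undetermined.

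Per kilobase of annotated exon, the levels of the members spanned a wide range. In synovium Stat4 was highest at 2373 ± 383 normalized reads per kb, followed by Hopx at 369 ± 62.1. Runx3 at 100.2 ± 17.0, Il12rb1 at 95.7 ± 35.6 and Tbx21 at 80.8 ± 26.5 came next, and the ranges of these 3 overlapped. Il12rb2 at 31.4 ± 15.8 lay below them and Eomes was last at 0.361 ± 0.625. In arthritic nodes Stat4 led at 617 ± 47.5 per kb. It was followed by Il12rb1 at 72.0 ± 38.3, Hopx at 51.4 ± 9.15 and Runx3 at 46.7 ± 14.2, whose ranges overlapped. Tbx21 stood at 21.2 ± 10.9, Il12rb2 at 8.36 ± 8.48 and Eomes at 1.66 ± 1.05, and the range of Il12rb2 overlapped those of both its neighbours. Control nodes had Stat4 at 521 ± 26, Hopx at 60.6 ± 14.1, Il12rb1 at 38.3 ± 11.5, Runx3 at 34.5 ± 5.25, Tbx21 at 14.4 ± 13.5, Il12rb2 at 3.54 ± 3.90 and Eomes at 1.52 ± 2.45 per kb. From Hopx down, the ranges of neighbours in this order overlapped.

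**Figure D3:**
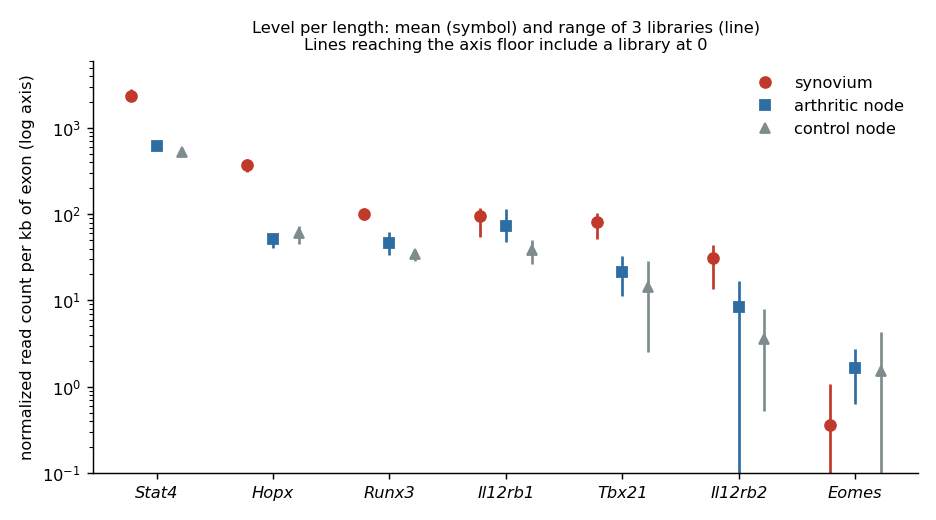
Normalized read count per kb of annotated exon (log axis) of the 7 genes, ordered by the synovial mean; symbols give the mean and lines the range of 3 libraries in synovium, arthritic node and control node, and a line that reaches the bottom of the axis includes a library at 0. Stat4 is highest in the 3 groups, from 2373 per kb in synovium to 521 in control nodes, and Eomes is lowest at 1.66 or less.

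Across the 9 libraries the levels of Stat4 and Hopx ran most alike among the members, with a Pearson r of 0.961 on the log2 scale, followed by Stat4 and Runx3 at 0.909 and Runx3 and Hopx at 0.851. Il12rb1 and Il12rb2 had the lowest value, 0.162. These values describe 9 libraries in 3 groups, which share the step between synovium and node. Of 8938 other genes with a mean of 50 or more, the closest to Stat4 were Ifngr1, which encodes a chain of the interferon gamma receptor (r = 0.997), Tgoln1 (0.996) and Selk (0.995). The closest to Hopx were Mettl21d (0.997), Phlda1 (0.992) and Pdp1 (0.99), and to Runx3 S100a10 (0.987), Tmbim1 (0.982) and Rapsn (0.98). Tbx21 ran closest to Wdr37 (0.959), Hip1 (0.953) and Scarb2 (0.951). Il12rb1 ran closest to Ctsl (0.965), Plekho2 (0.964) and Extl3 (0.934), and Il12rb2 to Ptar1 (0.96), Unc119 (0.953) and Faf2 (0.937). Ctsl averaged 212 ± 81.5 in synovium and 131 ± 56.3 in arthritic nodes and was not called between them (adjusted p = 0.266), as Il12rb1 was not. Ctsl was picked for its likeness to Il12rb1 over these same libraries, so the shared outcome is no separate result.

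Around the receptor, Jak2 was among the pathway genes that differed. Of the 2 kinases of the IL-12 receptor, Jak2 had 4193, 4859 and 5657 normalized reads in synovium and 594, 470.5 and 535 in arthritic nodes. It rose by 3.19 ± 0.15 (adjusted p = 2.56e-08), with no overlap. Tyk2 had 402, 311 and 701 in synovium and 364, 295 and 299.6 in arthritic nodes, which overlapped and differed by 0.48 ± 0.27 (adjusted p = 0.195). Of 14 kinases, STATs and inhibitors of this pathway, 8 rose and 0 fell in synovium against arthritic nodes, with a median log2 fold change of 0.61. For this and the lists that follow, the shares over all genes tested were 17.9% higher and 15.9% lower. Stat3, the main STAT of the IL-23 receptor, rose by 2.43 ± 0.16. Socs3, which encodes a suppressor of cytokine signalling, rose by 0.90 ± 0.27 (adjusted p = 0.0215) and was also higher in arthritic than in control nodes, by 2.26 ± 0.27 (adjusted p = 0.0118). In that comparison no gene was called in a fit of the 2 node groups alone or without arthritic node library 2, so neither this call nor those between node groups below held there.

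Of 13 IL-12 family ligands and neighbouring receptors, 9 reached the filter, 5 rose and 0 fell in synovium, against 17.9% and 15.9% of all genes, with a median of 1.31. Il23r, whose product pairs with the Il12rb1 chain, averaged 480.0 ± 218 in synovium and 24.6 ± 16.6 in arthritic nodes. It rose by 4.41 ± 0.75 (adjusted p = 0.000702). Both chains of the IL-18 receptor, which acts beside IL-12 on interferon gamma, rose, Il18r1 by 1.19 ± 0.12 and Il18rap by 2.91 ± 0.40. Il18r1 was also the only 1 of these receptors called between arthritic and control nodes (0.68 ± 0.12, adjusted p = 0.0412). Of the cytokine subunits, Ebi3 averaged 1894 ± 165 in synovium and 667 ± 163 in arthritic nodes and rose by 1.53 ± 0.18 (adjusted p = 3.99e-05). Il12b and Il23a had no read in the libraries with recovered reads and are listed at 0 in the ninth. Il12a reached at most 10.1 and Il27 at most 2.61.

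Of 24 Th1 targets and effectors, 22 reached the filter, and 16 rose and 1 fell in synovium against arthritic nodes, where 17.9% of all genes rose and 15.9% fell. The list's median was 2.33, beside -7.3e-05 over all genes. Ifng, the Th1 cytokine, had 277, 236 and 378 normalized reads in synovium and 68.7, 69.3 and 129 in arthritic nodes, and rose by 1.76 ± 0.39 (adjusted p = 0.00393). The transcription factor Bhlhe40 rose by 5.06 ± 0.30. Cxcr3, the chemokine receptor known as a T-bet target, averaged 2696 ± 507 in synovium and 1911 ± 503 in arthritic nodes, and did not pass (0.51 ± 0.21, adjusted p = 0.075). Perforin, Prf1, fell by 3.20 (SE 0.34). Between arthritic and control nodes 4 of the 22 rose, Gzmb, Gadd45b and Gadd45g among them, and 0 fell, beside 0.335% of all genes called higher. These calls too were lost in the fit of the 2 node groups alone.

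Of 11 Runx partners and genes of the CD4 and CD8 lineages, 10 reached the filter, and 3 rose and 1 fell, a share near the 33.8% of all genes that were called. Both relatives of Runx3 rose, Runx2 by 2.72 ± 0.31 and Runx1 by 0.65 ± 0.16, while the shared partner subunit Cbfb differed by 0.09 ± 0.24 (adjusted p = 0.795). Zbtb7b, which encodes the CD4-lineage factor ThPOK and which Runx proteins silence in CD8 T cells, fell by 1.95 (SE 0.36, adjusted p = 0.00134). Of 15 regulators of other lineages, 9 rose and 4 fell, beside 17.9% and 15.9% of all genes, with a median of 1.26. The Th2 and tissue Treg factor Gata3 rose by 2.39 ± 0.15, and Bach2, Tcf7, Lef1 and Id3, genes of resting lymphocytes, fell. Also higher were Zeb2 by 5.78 ± 1.17, Rora by 3.88 ± 0.24, Id2 by 3.39 ± 0.18 and Bcl6 by 2.10 ± 0.27. Batf, Prdm1, Ikzf2 and Irf4 rose by 0.75 to 1.51.

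**Figure D4:**
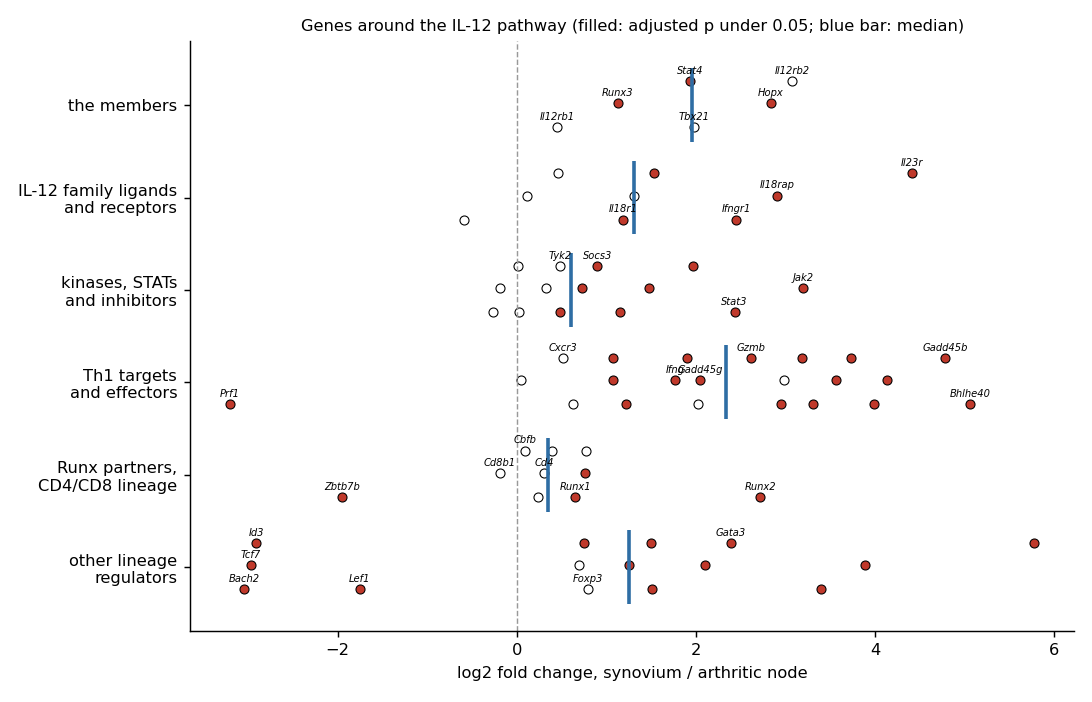
Log2 fold change of synovium over arthritic node (horizontal axis) for each gene that reached the filter, in rows for the members and 5 gene lists. Filled points have an adjusted p under 0.05, blue bars are medians, and some of the genes described in the text are labelled. The median is 1.96 for the members and 2.33 for the Th1 targets and effectors, and Prf1 and Zbtb7b are the filled points to the left of 0 in their lists.

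Markers of other lymphocytes that express these regulators were at levels like those of the scarcer members, and their part in the results was not tested. Of the CD8 T cell markers, Cd8a was at 0 in the 3 synovial libraries and the pair summed to 113 to 219 in synovium, 123 to 247 in arthritic nodes and 93.9 to 166 in control nodes, nearly all of it Cd8b1. Of 10 NK cell and type 1 innate lymphoid cell markers, Ncr1, Klra1, Klra4 and Klra8 were at 0 in the 9 libraries. The 10 summed to 24.7 to 119 in synovium, 7.70 to 155 in arthritic nodes and 9.93 to 22.1 in control nodes, and 0 of the 3 that reached the filter were called in any comparison. The highest of these sums, 155, was that of arthritic node library 3, the one with no Il12rb2 read and the highest arthritic node value of Eomes. The highest Eomes value of all, 18.1, was that of control node library 1, where the sum was 22.1. In synovial library 1 the sum was 119 and Eomes was at 0. Of the 8 dendritic cell and macrophage markers, 7 are in the table and 3 reached the filter. Against arthritic nodes 2 of the 3 rose in synovium and 0 fell, beside 17.9% and 15.9% of all genes. Against control nodes 2 rose and 1 fell, beside 21.6% and 18.5%. The 7 summed to 878 to 1126 in synovium, 45.2 to 389 in arthritic nodes and 113 to 361 in control nodes. Zbtb46 and Xcr1 carried the synovial sum, at 560.4 ± 40.2 and 439 ± 119. Lyz2 had a mean of 20.8 ± 24.7 in synovium, beside 169 ± 150.2 in arthritic and 199.6 ± 132 in control nodes. It was not called against arthritic nodes (-3.19 ± 1.44, adjusted p = 0.11) and fell against control nodes by 4.14 (SE 1.44, adjusted p = 0.0377). Clec9a and Itgax had no read in synovium, and the part of these cells in the results was not tested. B cell markers summed to 202 to 364 in synovium, 409.9 to 637 in arthritic nodes and 442 to 497 in control nodes. For gamma delta T cells 2 of the 6 markers are in the table, Sox13 at 0 and Blk at 0 to 75.1, highest in arthritic node library 3. Paws and nodes were both digested, and an effect of digestion that differs between them cannot be told apart from the tissue.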

How the data were processed

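Per the labels' protocols, Tregs were sorted on Foxp3-reporter YFP from digested paws and nodes, their RNA was taken up in Trizol, and a directional kit gave the libraries. The submitters' processing notes name HISAT2, HTSeq, DESeq2 and mm10; their versions, the annotation and the strand setting are not given there. The table the authors deposited holds a normalized signal, gene reads divided by a size factor per library: 100% of nonzero values were whole multiples, within 0.01, of a constant. Control node library 1, whose constant is close to 1, was left out of tests on recovered reads. The authors' deposited comparison table gives a log2 fold change with its error, a mean signal, a test score and p-values; rerunning DESeq2 on the 6 libraries of arthritic mice gave synovium over node values within 1.4e-06 of it.

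Groups were compared by limma 3.58.1 (R 4.3.3; lmFit, then eBayes with trend) on log2(value + 1) of genes with a mean of 10 or more, with all 9 libraries in the fit, two-sided, with Benjamini-Hochberg adjustment over all genes tested. edgeR 4.0.16 and DESeq2 1.42.0 on recovered reads of 8 libraries were alternatives, as were other pseudocounts, filters, scalings, variance models, sets of libraries and a mouse-number block. The pairing of synovium and arthritic node comes from the titles, and residuals of same-numbered libraries correlated at 0.02, 0.05 and 0.09. Same-numbered libraries of different animals gave 0.005, 0.07 and 0.07 between arthritic and control nodes. Between synovium and control nodes they gave -0.02, 0.03 and 0.05. The pairing itself was not tested. Named were the members, genes of 5 lists, and for each member the 3 most alike genes; Serbp1 was added for its exon overlap after values were seen. Some genes of the lists are in the counts but are not reported here. The members and lists were chosen with earlier results of these data known. Fold-change intervals reflect the spread between libraries; floors of 3 reads cover counting error only. Positions and exon lengths came from GENCODE vM21 (GRCm38). Scripts were tested on simulated data.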

Additional observations from a re-analysis of the deposited data

How the results depend on the processing

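In synovium against arthritic nodes, Stat4, Runx3 and Hopx kept their direction and passed under each of the 20 alternatives run. The count of members called was 3, against 4 in a fit of the 2 groups alone, which added Tbx21, and 5 in that fit with the mouse number as a block, which added Il12rb2; it ran from 3 to 4 with 1 library left out. Tbx21 also passed with a pseudocount of 5 (adjusted p = 0.0339), in a fit of the 2 groups alone (0.00889), in edgeR, in DESeq2 and without control node library 1 or 2 (0.0141). Its adjusted p ran from 0.0141 to 0.18 with 1 library left out. Against control nodes, 5 members were called, 4 to 6 with 1 library left out; Il12rb1 also failed with no mean-variance trend (adjusted p = 0.0597), and Il12rb2 passed with a pseudocount of 5 (0.0194), in a fit of the 2 groups alone (0.014) and without arthritic node library 1 (0.0489) or 3 (0.00795) or control node library 3 (0.0395). Against the fit of the 2 groups alone, the block changed no other call of a member. Between the node groups no member was called under any alternative run. There, all genes called numbered 39, against 10 with no trend, 0 with the 2 groups alone, 0 with the replicate block, 12 in edgeR, 172 in DESeq2 and 0 to 66 with 1 library left out (15 without synovial library 1, 0 and 1 without arthritic node libraries 2 and 3, 23 and 66 without control node libraries 2 and 3). Replicate numbers of that comparison pair no animals. The Il12rb2 difference between node groups, 0.43, reversed to -0.75 without arthritic node library 1, -0.23 without arthritic node library 2 and -0.40 without control node library 1, and was 2.26 without arthritic node library 3. The Il12rb2 to Il12rb1 ratio there was -0.40 and ran from -1.82 to 1.84 with 1 library left out. The Tbx21 to Eomes ratio there was -0.12, 0.42 with a pseudocount of 5, and -0.62 to 0.67 with 1 library left out. The cause of these changes was not tested. With 1 library left out, genes called numbered 3039 to 3895 in synovium against arthritic nodes and 3823 to 4402 against control nodes, the Il12rb2 to Il12rb1 ratio differences ran from 0.38 to 4.04 and from 1.54 to 2.91, and the Tbx21 to Eomes ones from 3.18 to 5.08 and from 3.23 to 4.96. Under quantile normalization the median over all genes moved to -0.12 and -0.13 in the synovial comparisons and gave 41.8% and 42.2% of calls higher, against 52.9% and 53.9%; Stat4 then rose by 1.53 against arthritic nodes. Depth limits Eomes and Il12rb2 most, with 0 to 13 and 0 to 142 reads per library among the 8 with recovered reads.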
